A study of Mus musculus with 2 samples.

Results

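The genes described here are 10 calcium store and entry genes, taken as a set for the pathway below Gq-coupled receptors. The set holds Plcd1, the inositol trisphosphate (IP3) receptor genes Itpr1, Itpr2 and Itpr3, the calcium sensor genes Stim1 and Stim2, the channel gene Orai1, the pump genes Atp2a2 and Atp2c1, and Casr, the gene of a cell surface receptor. They were chosen by gene symbol among the 27998 genes of the count matrices, and each symbol was found in both matrices. They were followed across the stages of the interfollicular epidermis (IFE) and the other cell types of the epidermis of newborn Chrm3 knockout (KO) mice.

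The cells came from 2 newborn male C57BL/6J mice (postnatal day 0) in which Chrm3, the M3 receptor gene, was knocked out, and each mouse gave 1 single-cell RNA library of its epidermis. The samples were depleted of dermis and of dead cells before the libraries were made. Every cell described here thus came from a KO animal, and the wild-type libraries were not analysed here, so no effect of the genotype was tested. Some transcripts counted as Chrm3 were present, with 13 UMIs in the kept cells of KO mouse 1 and 19 in those of KO mouse 2, and a UMI count does not tell which part of the gene they came from.

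A Gq-coupled receptor such as the M3 muscarinic acetylcholine receptor activates phospholipase C, which cuts a membrane lipid into IP3 and diacylglycerol. IP3 opens its receptors in the endoplasmic reticulum and releases calcium from this store, Stim proteins sense the emptied store and open Orai channels in the plasma membrane, and the pumps of the endoplasmic reticulum and the Golgi fill the stores again. Calcium is known as a signal for keratinocyte (KC) differentiation, and mutations of the human ATP2A2 and ATP2C1 genes are known to cause the blistering skin disorders Darier disease and Hailey-Hailey disease.

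The promoter windows of Plcd1, Stim1 and Itpr2 are shown because these genes carry the IFE results: Plcd1 and Stim1 had the 2 largest rises from resting basal to differentiated KCs, and Itpr2 stood at different levels in different clusters of basal KCs. Each window runs from 250 bases before to 50 bases after a gene start annotated by RefSeq on GRCm38.p6 and is written 5′ to 3′ along the gene. RefSeq windows were found for 8 of the 10 genes, 10 windows in all, and none was given for Itpr1 and Atp2a2. Capitals mark matches on either strand to GGGTG, the core of the CACCC box bound by Klf factors, and to GGAAA, the core of the NFAT site.
Plcd1, upstream start (chr9:119093453-119093752, minus strand): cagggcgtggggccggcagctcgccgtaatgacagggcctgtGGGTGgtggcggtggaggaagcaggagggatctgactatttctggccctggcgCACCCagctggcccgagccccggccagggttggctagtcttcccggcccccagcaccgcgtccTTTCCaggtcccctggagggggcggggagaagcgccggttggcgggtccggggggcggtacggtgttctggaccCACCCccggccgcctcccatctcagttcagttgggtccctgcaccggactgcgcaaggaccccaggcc
Plcd1, downstream start (chr9:119088212-119088511, minus strand): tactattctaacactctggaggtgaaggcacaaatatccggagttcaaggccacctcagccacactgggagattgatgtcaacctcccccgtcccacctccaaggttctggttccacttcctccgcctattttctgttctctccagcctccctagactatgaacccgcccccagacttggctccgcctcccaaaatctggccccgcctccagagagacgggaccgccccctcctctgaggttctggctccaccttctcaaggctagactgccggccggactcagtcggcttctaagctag
Stim1 (chr7:102267569-102267868, plus strand): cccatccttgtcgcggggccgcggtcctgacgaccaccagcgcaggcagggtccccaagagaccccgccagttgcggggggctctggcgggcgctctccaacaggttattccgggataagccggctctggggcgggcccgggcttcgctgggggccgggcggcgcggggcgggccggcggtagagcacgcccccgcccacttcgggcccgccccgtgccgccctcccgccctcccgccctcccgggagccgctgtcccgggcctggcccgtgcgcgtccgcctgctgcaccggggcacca
Itpr2 (chr6:146502174-146502473, minus strand): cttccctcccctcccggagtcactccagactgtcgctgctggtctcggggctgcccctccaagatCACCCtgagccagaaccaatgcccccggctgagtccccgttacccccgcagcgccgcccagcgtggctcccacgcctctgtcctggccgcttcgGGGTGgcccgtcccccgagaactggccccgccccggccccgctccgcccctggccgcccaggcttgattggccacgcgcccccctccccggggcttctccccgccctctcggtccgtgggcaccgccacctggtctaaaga

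The upstream Plcd1 window held 3 matches to GGGTG and 1 to GGAAA, the downstream Plcd1 window held 0 of either, the Stim1 window held 0 of either, and the Itpr2 window held 2 matches to GGGTG. Of all 32851 RefSeq mouse windows of the same length, 57.5% held GGGTG and 61.3% held GGAAA. The AP-1 site TGANTCA, held by 7.81% of all windows, and the Grainyhead site AACCGGTT, held by 0.146%, were in none of the 10 windows. Plcd1 and Stim1 thus had no searched sequence in common. A match is a stretch of letters only, not a shown binding site, and its absence says only that these letters are not in the window.

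A UMI is the molecular tag of 1 captured transcript, and levels are given as CPM, the UMIs of a gene relative to all UMIs summed for the group, with TMM scaling between groups. Of 10816 barcodes with 109756784 UMIs in KO mouse 1, 7607 cells were kept, and of 15867 barcodes with 166441732 UMIs in KO mouse 2, 11881 were kept. There were 34 kept barcode sequences that occurred in both libraries. Clusters were named from marker genes, with the calcium genes held out of clustering and naming. The IFE stages were resting basal KCs (944 and 1639 cells in the 2 mice), S-phase basal KCs (237 and 447), G2/M basal KCs (119 and 190), differentiated KCs (204 and 240) and terminally differentiated KCs (58 and 84). Clusters left unnamed among the cells first taken as IFE held 1292 and 2147 cells, and some were led by follicle genes such as Lhx2 or Krt79. All these unnamed clusters were left out of the stages and of the IFE sum that is compared with other cell types. The resting basal and differentiated names came from marker lists that hold Krt14 and Krt10, so the levels of these genes describe the stages and do not test the names. The basal keratin gene Krt14 went from 15400 CPM in resting basal to 1830 CPM in differentiated KCs on average. The suprabasal gene Krt10 went from 779 to 36600 CPM. The G2/M name was not firm. This stage had 239 CPM of Mki67, a proliferation gene, on average, but its G2/M marker enrichment (log2) was only 0.172. The enrichment was 1.85 in an unnamed cluster led by Hist1h1b and 2.4 in another led by Cenpf. Basal and follicle marker enrichments were 0.0577 and 0.095 in the first and -1.52 and 0.996 in the second. The second also had the follicle gene Lhx2 among its leading genes. The terminally differentiated KCs had the highest Lor level of the stages, 6220 CPM on average, but also 2570 CPM of Krt14 and 205 CPM of the proliferation gene Mki67, so this stage also held basal and dividing transcripts.

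All 10 genes are annotated as protein coding in GENCODE M21 on GRCm38. The IP3 receptor genes lie at chr6:108213096-108551109 (Itpr1, plus strand), chr6:146108299-146502223 (Itpr2, minus) and chr17:27057304-27122223 (Itpr3, plus), and Plcd1 lies at chr9:119071527-119093502 (minus). The sensor and channel genes lie at chr7:102267806-102437319 (Stim1, plus), chr5:53998499-54121057 (Stim2, plus) and chr5:123015074-123030456 (Orai1, plus). The pump genes lie at chr5:122453513-122502225 (Atp2a2, minus) and chr9:105403539-105527319 (Atp2c1, minus), and Casr lies at chr16:36493696-36562141 (minus). Only Itpr3 has an exon that overlaps an exon of another gene on the same strand, the microRNA gene Mir7677.

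To ask how the calcium genes differ as KCs leave the basal layer, UMI sums per mouse were compared between stages with edgeR's quasi-likelihood test. Its p-values weigh a difference against the spread between mice within stages, estimated over the 5 stages with information shared across genes. The main result does not pair the stages of the same mouse. In differentiated against resting basal KCs, 7 of the 8 tested calcium genes rose, 0 fell, and Atp2c1 did not pass. The genes that rose were Plcd1, Itpr2, Itpr3, Stim1, Stim2, Orai1 and Atp2a2. In this comparison 57% of the 11283 genes tested were called, 29% higher and 28.1% lower, so the background of calls was high. The median log2 fold change of the 8 genes was 0.76, against -0.02 over all genes tested. Itpr1 and Casr had too few UMIs to be tested in the IFE stages.

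The rises of Plcd1, Stim1, Stim2 and Atp2a2 passed under every alternative in which they were tested, and those of Itpr2 and Orai1 did not. The median mitochondrial share of UMIs per cell was 6.36% and 5.74% in resting basal and 5.54% and 5.23% in differentiated KCs, and its part in the results was not tested. With only cells under 5% mitochondrial UMIs, a smaller set of cells, 4 of 7 tested genes passed and Plcd1 was too low to be tested. Over all genes 3254 were called in this setting, against 6433 in the main result.

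**Figure D1:**
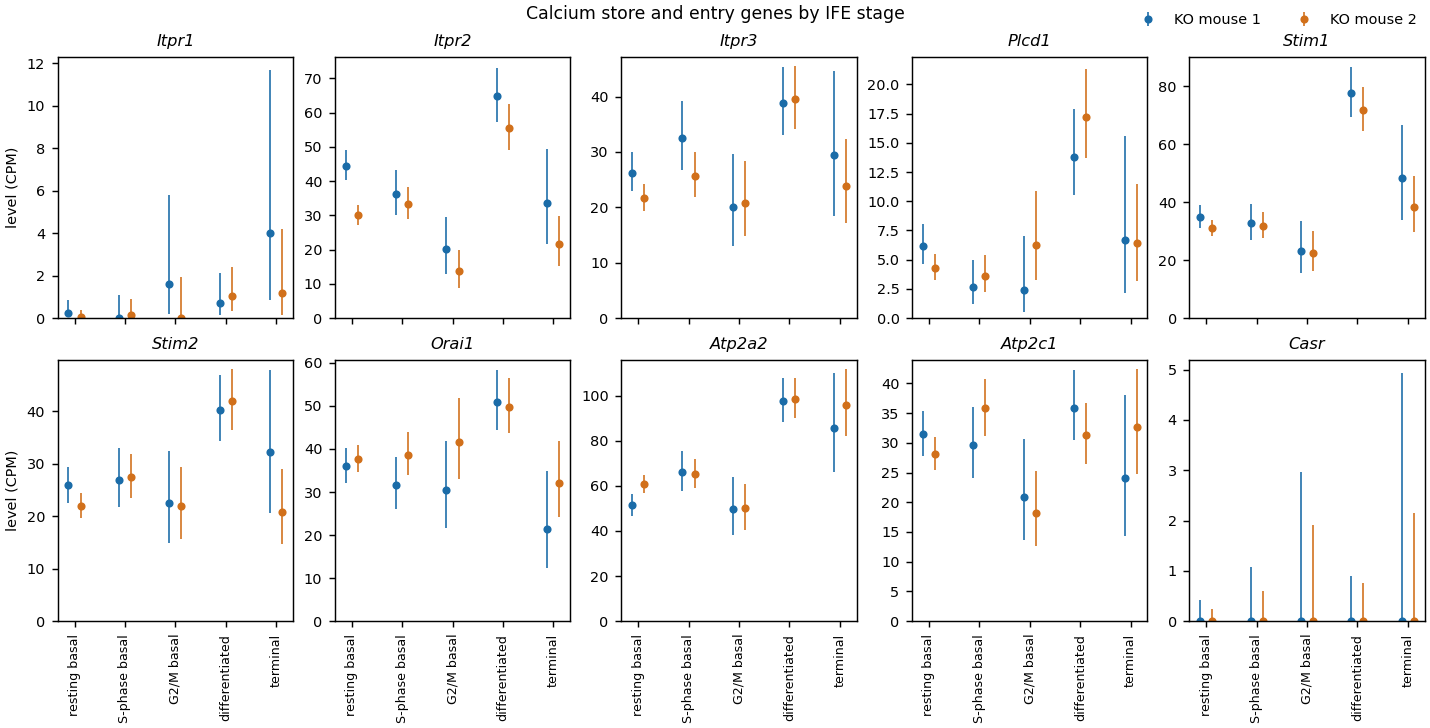
Level of each calcium gene (CPM, linear axis from 0) in the 5 IFE stages, with 1 point per KO mouse and exact 95% Poisson intervals as bars. For Plcd1, Itpr2, Itpr3, Stim1, Stim2, Orai1 and Atp2a2 both mice had their highest level in differentiated KCs, and Casr was at 0 in every stage.

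Plcd1 encodes phospholipase C delta 1, an enzyme that forms IP3 and is known for its role in skin and hair. Its level was 6.15 CPM in resting basal KCs of KO mouse 1 and 4.29 CPM in those of KO mouse 2, and 13.8 and 17.2 CPM in differentiated KCs. The differentiated levels of both mice lay above every level of the named basal stages, those of dividing cells included. The unnamed Ly6d-led cluster described below is not among these stages, and its Plcd1 levels overlapped the differentiated ones. The log2 fold change was 1.61 (SE 0.249, adjusted p = 8.81e-05, edgeR's quasi-likelihood test), the largest of the 8 genes. It ranged from 1.025 to 1.626 over the 9 alternatives with a test. The sums of the main result held 53 to 84 UMIs of Plcd1 each.

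Itpr2 and Itpr3 encode IP3 receptors of types 2 and 3. Itpr2 stood at 44.5 and 30 CPM in resting basal and at 64.8 and 55.5 CPM in differentiated KCs of mice 1 and 2, a log2 fold change of 0.70 (SE 0.181, adjusted p = 0.00464, edgeR's quasi-likelihood test). KO mouse 1 was the higher one in each of the 5 stages, and the stages still did not overlap in this comparison. Itpr3 went from 26.2 and 21.7 CPM to 38.8 and 39.5 CPM, a log2 fold change of 0.72 (SE 0.145, adjusted p = 0.000793), which did not pass with only cells under 5% mitochondrial UMIs (0.74, adjusted p = 0.0936).

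The call of Itpr2 depended on which cells counted as resting basal. That stage was made of 3 clusters, and Itpr2, here without TMM scaling, was at 60.3 and 41.2 CPM in the cluster led by H19 and Igf2, at 29.3 and 19.9 CPM in the larger cluster led by Pcsk2 and Ly6h, and at 16.8 and 8.86 CPM in a small cluster led by interferon-response genes such as Isg15. The differentiated KCs had 53.9 and 46.9 CPM on the same scale, within the range of the first cluster. With clustering at a finer resolution the difference was 0.19 (adjusted p = 0.396, edgeR's quasi-likelihood test), and with the clustering recomputed by another arithmetic kernel it was 0.15 (adjusted p = 0.479). The range of Itpr2 among the resting basal clusters was thus wider than the difference between the stages.

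A cluster with the leading genes Ly6d and Stfa1 (254 and 411 cells) was left unnamed and is described without a test, on the scale without TMM. In the clustering of all cells, a cluster with Ly6d and Stfa1 among its leading genes had been named differentiated IFE. The unnamed cluster had a basal marker level near the mean of the IFE clusters, and above that of all other cells (mean log2 enrichment 0.741). Plcd1 was at 15.4 and 12.3 CPM in it, near the 11.5 and 14.5 CPM of differentiated KCs and above the 8.21 and 5.44 CPM of the H19 and Igf2 cluster. Stim1 was at 52.6 and 49.2 CPM and Atp2a2 at 82.7 and 77.6 CPM, both above the same values in all 3 resting basal clusters. Itpr2 was at 24.8 and 17.7 CPM, below the differentiated KCs, and Atp2c1 at 19.8 and 22.2 CPM, below the 29.9 and 26.5 CPM of differentiated KCs. In this cluster the high levels of Plcd1, Stim1 and Atp2a2 thus went without a high level of Itpr2.

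Stim1 and Stim2 encode the calcium sensors of the endoplasmic reticulum. Stim1 was at 34.9 and 31.1 CPM in resting basal and 77.7 and 71.9 CPM in differentiated KCs, with a log2 fold change of 1.18 (SE 0.116, adjusted p = 1.21e-06, edgeR's quasi-likelihood test). Stim2 was at 25.9 and 22 CPM and at 40.3 and 42 CPM, with a log2 fold change of 0.79 (SE 0.141, adjusted p = 0.000302). For both sensors the differentiated levels of the 2 mice lay above every level in the other stages.

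Orai1 encodes the pore of the store-operated channel. It was at 36 and 37.7 CPM in resting basal and 51 and 49.8 CPM in differentiated KCs, a log2 fold change of 0.45 (SE 0.141, adjusted p = 0.0151, edgeR's quasi-likelihood test). This smallest of the called rises was lost without TMM scaling (0.22), at the finer resolution (0.24), with the other arithmetic kernel (0.25) and with cells under 5% mitochondrial UMIs (0.34).

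Atp2a2 encodes SERCA2, the calcium pump of the endoplasmic reticulum. It went from 51.5 and 60.7 CPM in resting basal to 97.6 and 98.7 CPM in differentiated KCs, and the 2 mice differed less in the differentiated than in the resting basal stage. The log2 fold change was 0.80 (SE 0.105, adjusted p = 2.04e-05, edgeR's quasi-likelihood test). Atp2c1, the calcium and manganese pump of the Golgi, did not share this pattern. It was at 31.4 and 28.1 CPM in resting basal and 35.9 and 31.3 CPM in differentiated KCs, and its log2 fold change of 0.18 did not pass (SE 0.143, adjusted p = 0.304).

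**Figure D2:**
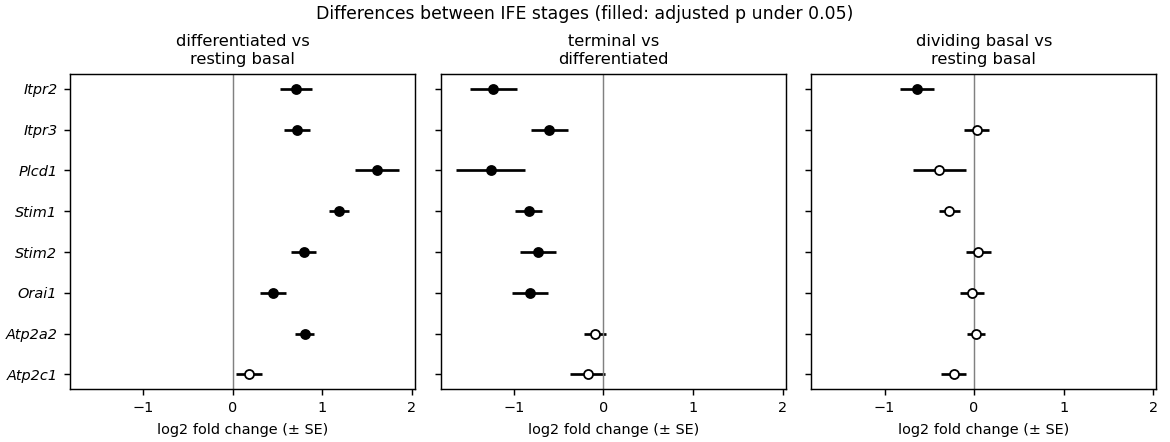
Log2 fold change of each tested calcium gene in the 3 IFE comparisons, with bars of 1 standard error and filled points where the adjusted p is under 0.05. In differentiated against resting basal KCs all 8 points lie right of 0 and 7 are filled, and in terminally differentiated against differentiated KCs all 8 lie left of 0 and 6 are filled.

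Casr, the calcium-sensing receptor of the cell surface, had 0 UMIs in every IFE stage of both mice. In resting basal KCs a count of 0 allows a level of up to 0.348 CPM in KO mouse 1 and 0.204 CPM in KO mouse 2, and in differentiated KCs of up to 0.728 and 0.614 CPM. Itpr1, the type 1 IP3 receptor gene, had 0 to 5 UMIs in each stage of each mouse, and its highest level with over 3 UMIs was 1.02 CPM in the differentiated KCs of KO mouse 2. At this depth neither gene could be followed across the stages.

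The shares of cells with a UMI were also compared at equal depth. Plcd1 was found in 4.61% ± 1.42 (SD, n = 2 mice) of resting basal and 23.9% ± 3.25 of differentiated KCs, whose cells had median depths of 8946.5 and 9002 UMIs and of 20395.5 and 19528.5 UMIs. With each cell thinned to 3000 UMIs, the shares were 1.53% ± 1 and 3.82% ± 0.53, and 5 and 53 resting basal and 1 and 2 differentiated cells were too shallow to count. In sebaceous-like cells, with 0 and 2 UMIs of Plcd1, the shares were 0.67% ± 0.948 before and 0% after thinning, at median depths of 18231.5 and 16848 UMIs. The thinned share of Stim1 was 8.83% ± 0.438 in resting basal and 16.8% ± 3.54 in differentiated KCs, and that of Atp2a2 was 15.5% ± 2.12 and 21.6% ± 2.69. For these genes and Plcd1 the thinned shares differed by more than their spread. The thinned shares of the other genes that rose were closer, at 10.1% ± 2.92 and 12.2% ± 2.33 for Itpr2, 9.76% ± 1.46 and 11.4% ± 3.56 for Orai1, 7.61% ± 1.58 and 8.88% ± 0.679 for Stim2, and 6.82% ± 0.46 and 8.7% ± 1.62 for Itpr3. The differences of Itpr2, Orai1 and Stim2 were smaller than the larger SD of each pair.

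Terminally differentiated KCs had lower levels of 6 of the 8 tested calcium genes than differentiated KCs, and 0 were higher, in a comparison in which 34.8% of all genes tested were called, 17.3% higher and 17.5% lower. Plcd1, Itpr2, Itpr3, Stim1, Stim2 and Orai1 fell, while Atp2a2 and Atp2c1 did not pass. The median log2 fold change was -0.78 for the 8 genes and -0.02 over all genes tested. The sums were the smallest of the stages, with 5 and 11 UMIs for Plcd1 and 16 to 66 UMIs per mouse for the other 5 genes that fell.

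The Itpr2 level was 33.5 CPM in KO mouse 1 and 21.5 CPM in KO mouse 2, below both differentiated levels, with a log2 fold change of -1.23 (SE 0.266, adjusted p = 0.00283, edgeR's quasi-likelihood test). Plcd1 was at 6.71 and 6.4 CPM (-1.26, SE 0.385, adjusted p = 0.0215). Stim1 was at 48.3 and 38.4 CPM (-0.83, SE 0.152, adjusted p = 0.000869), again with both mice below both differentiated values. Orai1, at 21.5 and 32 CPM (-0.83), Stim2, at 32.2 and 20.9 CPM (-0.73), and Itpr3, at 29.5 and 23.9 CPM (-0.60), also passed (adjusted p = 0.00619, 0.0118 and 0.034). Atp2a2 stood at 85.8 and 96 CPM, a log2 fold change of -0.09 that did not pass (adjusted p = 0.605).

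The cells of this stage differed from differentiated KCs in more than the calcium genes. Of its cells, 5 of 58 and 11 of 84 were called as doublets, against 1 of 204 and 1 of 240 differentiated KCs, and Krt14 was at 2570 against 1830 CPM and Mki67 at 205 against 12.1 CPM on average. With called doublets removed, 5 of the 6 genes passed, and Itpr3 did not (-0.57, adjusted p = 0.0606, edgeR's quasi-likelihood test). With only the cells that both clusterings placed in the stage, all 6 passed with log2 fold changes of -0.68 (Stim2) to -2.86 (Plcd1). Without TMM scaling, which moved the median of all genes by 0.34, only Itpr2 and Stim1 passed. At the finer resolution Itpr3, Stim2 and Orai1 did not pass, and with the other arithmetic kernel Itpr3 and Orai1 did not.

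Dividing basal KCs, the mean of the S-phase and G2/M stages, were compared with resting basal KCs. The unnamed clusters led by Hist1h1b and Cenpf, with higher G2/M marker enrichment than the named G2/M stage, were not part of this comparison. Of the 8 tested calcium genes, 0 rose and 1 fell, Itpr2, with 14.7% of all genes tested called, 8.61% higher and 6.07% lower. The other 7 had log2 fold changes between -0.39 (Plcd1, adjusted p = 0.43, edgeR's quasi-likelihood test) and 0.05 (Stim2, adjusted p = 0.865), and the median was -0.13 for the 8 genes and -0.02 over all genes tested. With the mouse as a block, which pairs sums of the same animal, 2691 genes were called in place of 1656, and Itpr2 stayed the 1 calcium gene that passed.

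The 2 phases were not alike in level. Itpr2 was at 36.3 and 33.3 CPM in S-phase KCs, near the resting basal values of 44.5 and 30 CPM, and 20.1 and 13.6 CPM on 25 and 26 UMIs in G2/M KCs, below every S-phase and resting value. The log2 fold change over both phases was -0.64 (SE 0.19, adjusted p = 0.0402, edgeR's quasi-likelihood test), and the phases were not tested against each other. In Itpr3, Stim1, Atp2a2 and Atp2c1 too, both G2/M values lay below every S-phase and resting value, for example in Atp2c1 with 20.9 and 18.2 CPM in G2/M against 29.6 and 35.8 CPM in S-phase KCs. The gaps to the lowest resting value were small for Atp2a2 (49.8 and 50 against 51.5 CPM) and Itpr3 (20.1 and 20.8 against 21.7 CPM). Without TMM scaling the mean of Atp2a2 was 54.3 CPM in G2/M and 54.9 CPM in resting basal KCs. The means of Itpr3 were 22.2 and 23.5 CPM. On that scale neither gene kept both G2/M values below every resting value. The share of all genes that separate in this way was not counted. The low G2/M levels are those of the named stage. The unnamed cluster led by Hist1h1b had a stronger G2/M marker enrichment, and a follicle enrichment near its basal one. It had higher levels of Itpr3, Stim1, Atp2a2 and Atp2c1. Without TMM scaling it had Stim1 at 41.4 and 38 CPM, against 25.7 and 24 CPM in the G2/M stage. Its Atp2a2 was at 64 and 71.4 against 54.9 and 53.6 CPM, and its Atp2c1 at 35.8 and 32.3 against 23 and 19.6 CPM. The Itpr2 call was lost with DESeq2, without TMM scaling and with the Ly6d-led cluster counted as resting basal, a setting in which Stim1 (-0.50, adjusted p = 0.00808) and Plcd1 (-0.97, adjusted p = 0.0251) passed instead.

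The 3 IP3 receptor genes made up different shares of the IP3 receptor UMIs in different cells. Because each transcript is counted once at its 3′ end, the shares need no correction for length, and they are compared here between groups. In resting basal KCs Itpr2 gave 62.7% (exact 95% binomial interval 58.8 to 66.6) of 612 UMIs in KO mouse 1 and 58% (54.4 to 61.5) of 761 in KO mouse 2, and in differentiated KCs it gave 62.1% (57.3 to 66.7) and 57.8% (53.2 to 62.3). The make-up of both stages as named was thus alike within counting error, which is all these intervals cover. Both genes had higher levels in differentiated KCs. The clusters of basal KCs were not all alike. Itpr2 had 257 and 288 UMIs against 129 and 150 of Itpr3 in the H19 and Igf2 cluster. In the larger Pcsk2 and Ly6h cluster it had 120 and 147 against 90 and 150. In the Ly6d-led cluster, left out of the stage, it had 90 and 98 against 113 and 177. In terminally differentiated KCs Itpr2 gave 50% (35.5 to 64.5) of 50 UMIs and 46.2% (35 to 57.8) of 80. Itpr1 gave at most 1.07% in resting basal and differentiated KCs.

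**Figure D3:**
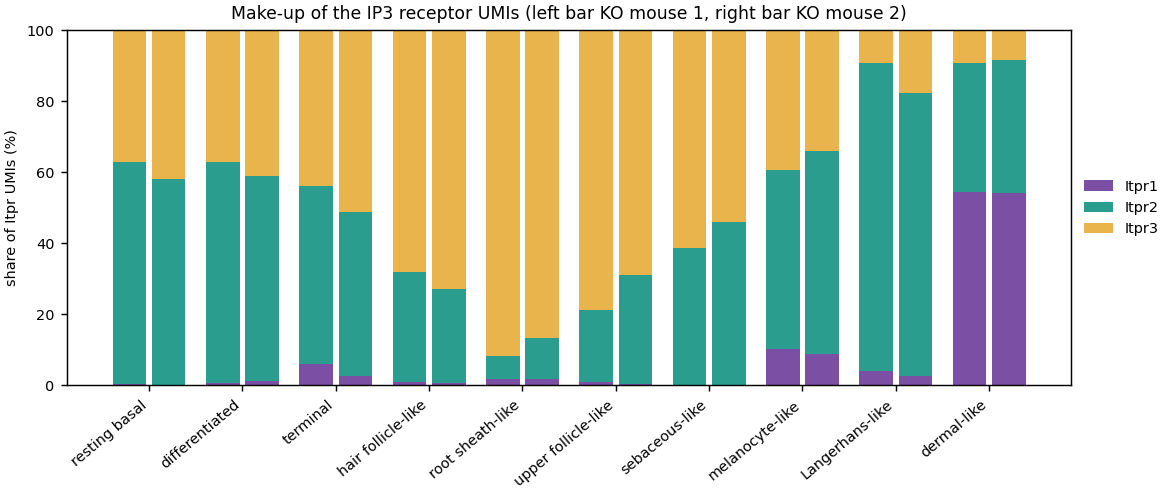
Share of Itpr1, Itpr2 and Itpr3 in the UMIs of the 3 IP3 receptor genes (%), with 1 stacked bar per KO mouse in 3 IFE stages and 7 other cell types. Itpr3 gave 91.8% and 86.6% in inner root sheath and hair shaft-like cells, Itpr2 gave 87% and 79.7% in Langerhans-like cells, and Itpr1 gave 54.5% and 54.2% in dermal-like cells.

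Outside the IFE the make-up differed between the cell types. Inner root sheath and hair shaft-like cells had almost only Itpr3, 91.8% (86.4 to 95.6) of 159 UMIs and 86.6% (82.2 to 90.3) of 292. Langerhans-like cells had mainly Itpr2, 87% (77.4 to 93.6) of 77 UMIs and 79.7% (69.2 to 88) of 79. Dermal-like cells, 39 and 69 cells that had come along with the epidermis, had an Itpr1 share of 54.5% (23.4 to 83.3) of 11 UMIs and 54.2% (32.8 to 74.4) of 24, with intervals too wide to say which of the 3 genes led. In melanocyte-like cells Itpr1 gave 10.2% (6.69 to 14.6) and 8.91% (6.47 to 11.9).

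To place the IFE among the other cells, the UMI sums of hair follicle-like, sebaceous-like, melanocyte-like, Langerhans-like and T cell-like cells were compared with the sum of the named IFE stages. Itpr2 was lower than in the IFE in 4 of these 5 types, Plcd1 in 3, and Itpr1 was higher in 3. The Itpr1 calls in Langerhans-like and T cell-like cells and the Plcd1 call in sebaceous-like cells rest on 5 UMIs or fewer. Casr had too few UMIs to be tested in any type. KC transcripts were present in the non-KC types, where Krt14 was at 8.24% to 22.4% of the IFE level. Called doublets were 42 of 437 and 88 of 728 melanocyte-like and 13 of 145 and 22 of 193 Langerhans-like cells. Among T cell-like cells they were 4 of 52 and 0 of 38. Whether the KC transcripts were free RNA or came from doublets, and their part in the levels of the calcium genes, was not tested.

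**Figure D4:**
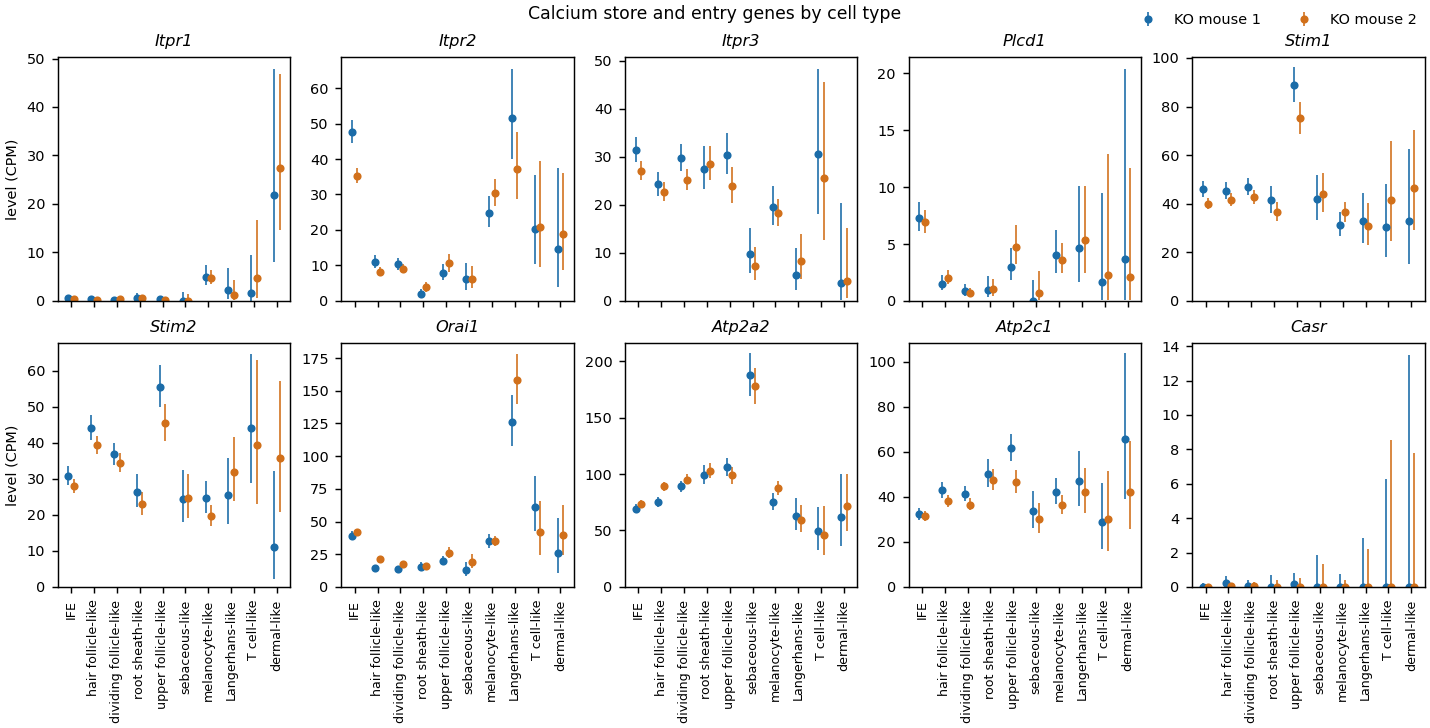
Level of each calcium gene (CPM, linear axis from 0) in IFE KCs and 9 other cell types, with 1 point per KO mouse and exact 95% Poisson intervals as bars. Plcd1 and Itpr2 were lower in the follicle and sebaceous-like types than in the IFE, Orai1 stood highest in Langerhans-like cells, Atp2a2 in sebaceous-like cells, Stim1 in upper follicle-like cells, and Itpr1 in dermal-like cells.

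Hair follicle-like cells (1509 and 2291 cells) had lower Plcd1, Itpr2 and Orai1 and higher Stim2 and Atp2c1, 2 higher and 3 lower of 9 tested, with 38.7% of all 13808 genes tested called, 19.3% higher and 19.3% lower. The median log2 fold change was -0.31 for the 9 genes and 0 over all genes. Plcd1 was at 1.53 and 2.01 CPM against 7.32 and 6.89 CPM in the IFE (log2 fold change -1.96, SE 0.23, adjusted p = 6.66e-07, edgeR's quasi-likelihood test). Itpr2 was at 11 and 8.27 CPM against 47.6 and 35.2 CPM (-2.11, SE 0.182, adjusted p = 8.86e-09). Orai1 was at 14.6 and 21 CPM against 39.3 and 42 CPM (-1.18, SE 0.165, adjusted p = 7.31e-06). Each of these genes had both follicle values below both IFE values, and the share of all genes separated in this way was not counted.

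The remaining follicle differences were smaller. Stim2 was at 44.1 and 39.4 CPM against 30.7 and 27.9 CPM (0.51, adjusted p = 0.00456, edgeR's quasi-likelihood test) and Atp2c1 at 43.1 and 38.1 against 32.5 and 31.5 CPM (0.34, adjusted p = 0.0355), and with cells under 5% mitochondrial UMIs or the other arithmetic kernel neither passed. Itpr3, at 24.3 and 22.6 against 31.4 and 27 CPM (-0.31, adjusted p = 0.0512), and Atp2a2, at 75.2 and 89 against 69.1 and 73.2 CPM (0.21, adjusted p = 0.099), did not pass, but did with the mouse as a block (adjusted p = 0.00997 and 0.0388). Counting the block, Itpr3 passed under 4 and Atp2a2 under 3 of 10 alternatives with a test. Stim1 had a log2 fold change of 0.02 that did not pass (adjusted p = 0.947).

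Other parts of the follicle, described without a test, went their own ways. Upper follicle-like cells (320 and 310 cells) had the highest Stim1 level of the named types, 88.8 and 75.3 CPM, and Stim2 at 55.6 and 45.5 CPM, against 46 and 40 CPM and 30.7 and 27.9 CPM in the IFE. Inner root sheath and hair shaft-like cells had Itpr2 at 1.88 and 3.83 CPM on 10 and 34 UMIs, and Itpr3 at 27.5 and 28.5 CPM. Dividing hair follicle-like cells had Plcd1 at 0.88 and 0.653 CPM, below the 1.53 and 2.01 CPM of the hair follicle-like cells. Clusters left unnamed outside the IFE held 813 and 1444 cells and entered no type. The larger was matched best by the hair follicle list, at a mean log2 enrichment of only -0.439. Without TMM scaling it had Itpr2 at 28.6 and 23.3, Orai1 at 28.6 and 30.4 and Plcd1 at 5.25 and 3.15 CPM. The hair follicle-like means were 9.98, 18.4 and 1.83 CPM, so the low follicle levels are those of the named cells.

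Sebaceous-like cells (98 and 149 cells) had the highest Atp2a2 level, 188 and 178 CPM against 69.1 and 73.2 CPM in the IFE (log2 fold change 1.36, SE 0.103, adjusted p = 9.18e-10, edgeR's quasi-likelihood test). Of the 9 genes tested, Atp2a2 was the 1 that was higher and 4 were lower, with 45.4% of all genes called, 22.2% higher and 23.2% lower, and the median log2 fold change was -1.29 for the 9 genes and -0.09 over all. Itpr2 was at 6.14 and 6.19 CPM (-2.74, SE 0.29, adjusted p = 1.2e-07), Itpr3 at 9.72 and 7.28 CPM (-1.81, SE 0.21, adjusted p = 4.51e-07) and Orai1 at 13.3 and 19.3 CPM (-1.29, SE 0.231, adjusted p = 0.000102). The SERCA2 gene was thus highest in cells in which Itpr2 and Itpr3 were low. Plcd1 passed (adjusted p = 5.83e-06) with 0 and 2 UMIs, a level of at most 1.88 and 2.62 CPM by the exact 95% Poisson interval, against 7.32 and 6.89 CPM in the IFE. Itpr1 had 0 UMIs in both mice and did not pass (adjusted p = 0.102).

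Melanocyte-like cells (437 and 728 cells) had higher Itpr1 and lower Plcd1, Itpr2, Itpr3, Stim1 and Stim2, 1 higher and 5 lower of 9 tested, with 53.1% of all genes called, 26.8% higher and 26.3% lower. The median log2 fold change was -0.33 for the 9 genes and -0.0059 over all. Itpr1 was at 5.03 and 4.76 CPM on 25 and 41 UMIs, against 0.577 and 0.323 CPM on 10 and 9 UMIs in the far larger IFE sums (log2 fold change 3.47, SE 0.367, adjusted p = 1.17e-07, edgeR's quasi-likelihood test). Plcd1 was at 4.02 and 3.6 CPM (-0.91, SE 0.247, adjusted p = 0.00393) and Itpr3 at 19.5 and 18.2 CPM (-0.63, SE 0.141, adjusted p = 0.000725). These 3 genes kept their calls under every alternative in which they were tested. Their melanocyte-like and IFE values did not overlap, and the share of all genes without overlap was not counted.

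The other melanocyte-like calls were less firm. Itpr2 (-0.56, adjusted p = 0.0119, edgeR's quasi-likelihood test), at 24.9 and 30.4 CPM, Stim1 (-0.33, adjusted p = 0.0336), at 31.4 and 36.5 CPM, and Stim2 (-0.42, adjusted p = 0.0262), at 24.7 and 19.6 CPM, lost their calls without TMM scaling, which moved the median of all genes by 0.20. Itpr2 lost its call also with cells under 5% mitochondrial UMIs and with the other arithmetic kernel, and Stim1 with DESeq2 and with DESeq2's size factors. Atp2c1, at 42.4 and 36.5 CPM (0.29, adjusted p = 0.0713), and Atp2a2, at 75.6 and 87.7 CPM (0.20, adjusted p = 0.0951), did not pass, but did with the mouse as a block (adjusted p = 0.0132 and 0.0461). Counting the block, Atp2c1 passed under 5 and Atp2a2 under 2 of 10 alternatives with a test.

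Langerhans-like cells (145 and 193 cells), the antigen-presenting cells of the epidermis, had the highest Orai1 level of all types. Orai1 was at 126 and 158 CPM against 39.3 and 42 CPM in the IFE (log2 fold change 1.81, SE 0.175, adjusted p = 2.32e-08, edgeR's quasi-likelihood test), and Itpr3 at 5.4 and 8.28 CPM against 31.4 and 27 CPM (-2.05, SE 0.255, adjusted p = 8.53e-07). Both genes passed under every alternative that was run. Of the 9 genes tested 3 were higher and 2 lower, with 51.1% of all genes called, 25.2% higher and 25.9% lower, and the median was -0.01 for the 9 genes and -0.11 over all.

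The smaller differences of Langerhans-like cells were a higher Atp2c1, at 47 and 42 CPM (0.47, adjusted p = 0.0251, edgeR's quasi-likelihood test), and a lower Stim1, at 33.1 and 30.7 CPM (-0.43, adjusted p = 0.0359). The first was lost without TMM scaling and with cells under 5% mitochondrial UMIs, and the second with DESeq2 and with its size factors. Itpr1 passed (adjusted p = 0.0396) on 3 and 2 UMIs, and not with the mouse as a block (adjusted p = 0.0557). The Itpr2 level of 51.6 and 37.2 CPM did not differ from the IFE beyond the spread (log2 fold change 0.09, adjusted p = 0.765).

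T cell-like cells (52 and 38 cells) gave the smallest sums tested, and 1 calcium gene was higher and 2 lower of 9 tested, with 35.2% of all genes called, 15.6% higher and 19.7% lower. The median log2 fold change was -0.12 for the 9 genes and -0.25 over all. Atp2a2 was at 49.2 and 46.3 CPM against 69.1 and 73.2 CPM (-0.57, SE 0.177, adjusted p = 0.0158, edgeR's quasi-likelihood test), a call lost with DESeq2 (-0.40) and without TMM scaling (-0.38). Itpr2, at 20.4 and 20.8 CPM on 12 and 9 UMIs (-1.003, SE 0.364, adjusted p = 0.0373), lost its call under 7 of the alternatives. Itpr1 passed (adjusted p = 0.0412) on 1 and 2 UMIs, at 1.7 (exact 95% Poisson interval 0.043 to 9.45) and 4.63 (0.56 to 16.7) CPM, and not with the mouse as a block (adjusted p = 0.0615). Orai1, at 61.1 and 41.7 CPM, did not pass (0.37, adjusted p = 0.347).

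Dermal-like cells were too few for more than a description. Itpr1 was at 21.9 and 27.4 CPM on 6 and 13 UMIs, the highest level of all types, and Itpr3 at 3.65 and 4.21 CPM on 1 and 2 UMIs. Casr was found only among follicle-like cells in the named types, with 3 and 1 UMIs in hair follicle-like, 1 and 1 in dividing hair follicle-like and 1 and 0 in upper follicle-like cells. In the 18 and 19 Merkel-like cells, Stim1 had 12 and 8 UMIs, Atp2c1 12 and 7 and Atp2a2 6 and 16, while Itpr1, Itpr2, Casr and Plcd1 had 0.

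The other genes of the pathway were taken as lists from receptor to effector. No test compared the lists with each other or with all genes, of which 29% were higher and 28.1% lower in differentiated against resting basal KCs. Of 7 tested Gq-coupled receptor genes 1 rose and 2 fell, of 4 Gq family alpha subunit genes 2 rose and 2 fell, and of 5 other phospholipase C genes 0 rose and 2 fell. The receptor genes F2r, for the thrombin receptor PAR1, and Lpar1, for a lysophosphatidic acid receptor, had log2 fold changes of -4.23 (SE 0.302, adjusted p = 5.74e-08, edgeR's quasi-likelihood test) and -4.29 (SE 0.534, adjusted p = 1.27e-05). In differentiated KCs these genes had 3 and 4 and 0 and 4 UMIs, so the sizes of the folds are uncertain. The phospholipase gene Plcd3 had -3.30 (SE 0.321, adjusted p = 1.16e-06), on 7 and 11 UMIs in differentiated KCs, in the comparison in which its relative Plcd1 had 1.61. Among the alpha subunits, all 4 outside the rule on named genes and chosen after their values were seen, Gnaq (-1.28) and Gna14 (-2.25) fell and Gna11 (0.33) and Gna15 (0.58) rose.

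**Figure D5:**
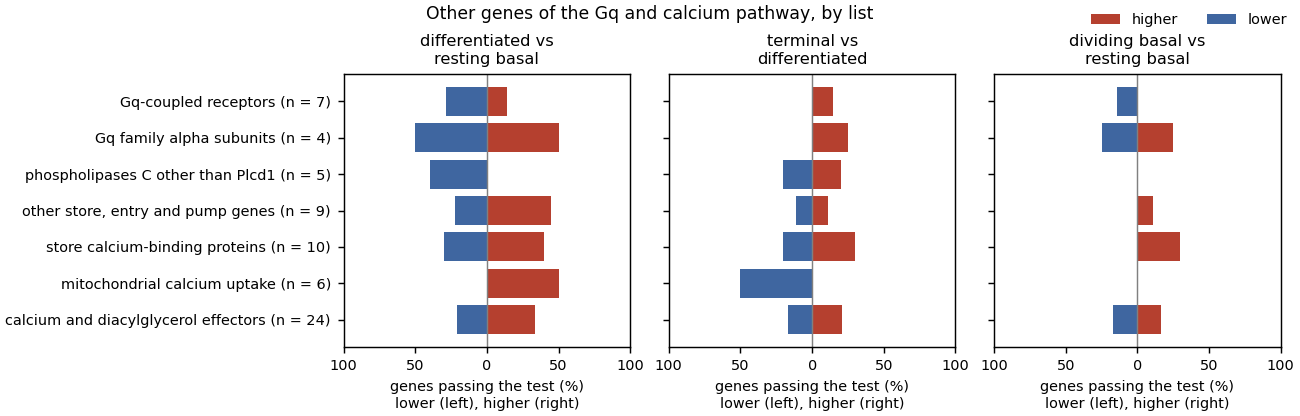
Share of the tested genes of each pathway list that passed the test (%), with genes that were lower drawn to the left and genes that were higher to the right, in the 3 IFE comparisons. In differentiated KCs the phospholipase C list has 2 of 5 genes to the left and 0 to the right, and the mitochondrial uptake list has 3 of 6 to the right and 0 to the left, on lists too small for more than a description.

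The lists downstream of IP3 held calls in both directions, apart from the mitochondrial one. Of 6 mitochondrial calcium uptake genes 3 rose and 0 fell, with a median log2 fold change of 0.57, and of 9 tested other store, entry and pump genes 4 rose and 2 fell, with a median of 0.38. Atp2c2, the second Golgi calcium pump gene, had the highest log2 fold change of the pathway, 5.21 (SE 0.525, adjusted p = 1.67e-06, edgeR's quasi-likelihood test), on 1 and 3 UMIs in resting basal KCs against 35 and 30, whereas its relative Atp2c1 did not pass. Of 10 genes for calcium-binding proteins of the store 4 rose and 3 fell, with Rcn1 at 2.28 (SE 0.146, adjusted p = 2.02e-08), and of 24 effector genes 8 rose and 5 fell.

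In terminally differentiated against differentiated KCs, with 17.3% of all genes higher and 17.5% lower, F2r and Rcn1 went the other way from the comparison above. F2r (3.41), the channel gene Orai2 (3.27) and the protein kinase C gene Prkca (2.22) were higher, and Rcn1 (-1.70) and the phospholipase C gene Plch2 (-1.13) were lower, all past the test (adjusted p from 2.6e-05 to 0.00977, edgeR's quasi-likelihood test). F2r and Orai2 had 3 and 4 and 7 and 3 UMIs in differentiated KCs, Prkca 4 and 6, and these folds are uncertain in size. F2r and Prkca had been lower in differentiated than in resting basal KCs. Krt14, at 2570 against 1830 CPM, and Mki67, at 205 against 12.1 CPM, were also higher in this comparison. Mki67 was at 9.28 CPM in resting basal KCs, so it had not shared the earlier fall. A link between these genes was not tested. Of the mitochondrial uptake genes 0 of 6 were higher and 3 lower. The other lists had 1 higher and 0 lower of 7 receptors, 1 and 0 of 4 alpha subunits, 1 and 1 of 5 phospholipases C, 1 and 1 of 9 other store, entry and pump genes, 3 and 2 of 10 store proteins, and 5 and 4 of 24 effectors.

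In dividing against resting basal KCs, with 8.61% of all genes higher and 6.07% lower, the lists held calls in both directions. The store chaperone gene Hsp90b1 (1.14), Nfatc1 (1.06), for a calcineurin-dependent transcription factor, and the calmodulin gene Calm3 (0.71) had the highest values past the test, and the IP3 kinase gene Itpka (-1.72, with 0 and 1 UMIs in G2/M KCs), the kinase gene Prkcz (-0.86) and the IP3 phosphatase gene Inpp5a (-0.83) the lowest (adjusted p from 8.49e-07 to 0.0426, edgeR's quasi-likelihood test). Of the store calcium-binding proteins 3 of 10 rose and 0 fell, and of the effectors 4 of 24 rose and 4 fell. Of the 7 receptor genes 1 fell, of the 4 alpha subunit genes 1 rose and 1 fell, of the 9 other store, entry and pump genes 1 rose, and 0 of 5 phospholipase C and 0 of 6 mitochondrial uptake genes passed.

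As a description of which genes ran parallel to the calcium genes, profiles of the log2 mean level over the 15 stages and cell types were correlated. Pearson's r was highest for Plcd1 with Cfap43 (0.915) and Parp10 (0.872), for Orai1 with Tsc22d4 (0.908) and Sh3bgrl3 (0.904), for Stim1 with Mob4 (0.889) and Ndrg2 (0.88) and for Atp2a2 with Pla2g12a (0.911) and Eif4g1 (0.908). It was 0.911 for Itpr2 with Cfap43 and 0.893 with Fhit, so Cfap43 was near to both Itpr2 and Plcd1, and these 2 calcium genes had r = 0.851 with each other. The values were 0.903 for Itpr1 with Tmem18, 0.917 for Atp2c1 with Cdk8, 0.832 for Itpr3 with Tbc1d2 and 0.817 for Stim2 with Nebl. The second genes were Nkd2 for Itpr1 (0.889), Zfp605 for Atp2c1 (0.885), Zdhhc15 for Itpr3 (0.83) and Cobll1 for Stim2 (0.788), and Col4a4 (0.85) and Moxd1 (0.837) for Casr, which rests on few UMIs. The points share the 2 libraries. They include the Merkel-like group of 18 and 19 cells, in which Itpr2 and Plcd1 had 0 UMIs.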

How the data were processed

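The single-cell data came from 2 KO mice, with 1 library each. The deposited matrices hold raw UMI counts per gene and cell, which the authors made with Cell Ranger 3.0.2 (name and version from the submitters' processing notes) on the mouse genome mm10. The labels name a first version of the 3′ chemistry and the methods a later one, so the version is not settled here. A barcode was kept as a cell when it held 900 to 7700 genes and less than 10% of its UMIs were mitochondrial. The kept cells were integrated with Seurat 5.3.0 (2000 variable genes, 30 dimensions, resolution 0.8), and 116 genes of the calcium pathway were held out of the variable genes and of naming.

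Clusters were named from marker lists, and the limits for naming (at least 3 enriched markers) were set after the clusters had been seen, so names may differ from the study's. Clusters that met no rule were left unnamed, among them 1 whose markers met the resting basal rule but whose leading genes were Ly6d and Stfa1. The grouping of cells near the border of basal and suprabasal KCs depended on rounding in the linear algebra, so it was run on a single thread with 1 fixed arithmetic kernel. Under another kernel 86.5% to 99.5% of the cells of each stage kept their stage. A run with the arithmetic not fixed named 1 cluster transitional, between basal and differentiated. The fixed run named none, so the planned transitional comparison gave no value. Doublets were scored with Scrublet in scanpy 1.11.5 at a common score limit of 0.2, since the automatic limit called 0.0263% of the cells of KO mouse 1. They made up 2.47% and 4.21% of cells, were kept in the main result and were removed in an alternative.

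UMIs were summed per mouse and group (at least 20 cells per mouse). Sums were tested with edgeR 4.0.16, by its quasi-likelihood test with TMM scaling, filterByExpr and Benjamini-Hochberg adjustment over all genes at 0.05, once over 5 IFE stages (11283 genes) and once over 10 cell types (13808 genes), the IFE being the sum of its named stages. The script was tested on simulated data. Alternatives were DESeq2 1.42.0, its size factors in edgeR, no TMM scaling, no filter on low counts, the mouse as a block, resolution 1.2, the other kernel, the Ly6d-led cluster as resting basal, cells under 5% mitochondrial UMIs, doublets removed and each mouse left out. The block pairs sums of the same animal. Deviations of same-mouse sums correlated with a median r of 0.086 between stages (0.02017 to 0.3383) and 0.0623 between types (-0.01121 to 0.3565). Intervals and the limit that a count of 0 allows (3 UMIs) cover counting error only. Promoter windows are from RefSeq and gene positions from GENCODE M21, both on GRCm38.

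The named genes were the 10 calcium genes, the 3 highest and 3 lowest called pathway genes of each IFE comparison, and for each calcium gene the 2 genes with the most similar profile. A named pathway gene is not reported here. The genes and lists were chosen with earlier results of these data known. Work was done in R 4.3.3 and Python 3.11.15.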

Additional observations from a re-analysis of the deposited data

Results flagged for a closer look

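Barcodes that failed the limits on genes or mitochondrial UMIs enter no comparison, and 9 of the 10 calcium genes were found in them above what a count of 0 would allow (0.204 CPM in KO mouse 1 and 0.17 CPM in KO mouse 2). There were 3209 and 3986 such barcodes in KO mouse 1 and KO mouse 2, with 14708526 and 17598323 UMIs. Levels here are CPM without TMM scaling.

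Itpr2 was at 67.7 CPM in the removed barcodes of KO mouse 1 and 56.5 CPM in those of KO mouse 2, against 20 and 17.2 CPM in the kept cells. Itpr3 was at 70.5 and 62.2 CPM against 27.9 and 25.3 CPM, and Itpr1 at 1.02 and 0.852 CPM against 0.694 and 0.705 CPM. Of the pump genes, Atp2c1 was at 85.7 and 73.5 CPM against 40.4 and 35.5 CPM and Atp2a2 at 142 and 141 CPM against 81 and 83.8 CPM. Plcd1 was at 7.89 and 7.39 CPM against 3.58 and 3.46 CPM. The removed and kept levels were nearer to each other for Stim1 (53.6 and 43.6 against 47.6 and 42.2 CPM), Stim2 (43 and 37 against 35.5 and 31.7 CPM) and Orai1 (27.1 and 36.3 against 24.9 and 29.3 CPM). Which cells the removed barcodes came from was not tested.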

How the results depend on the processing

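Of 688 values of the calcium genes recomputed with a test, 610 kept their side of the threshold, 55 lost a call, 23 gained one and 0 of the called values reversed. The 610 include values called in neither setting that changed direction. One was Atp2a2 in dividing KCs, at 0.02 in the main result and from -0.15 to 0.14 in the alternatives. All 38 called values had the same direction in each mouse alone, where no test was possible. The calls were made from the same 2 mice, so this is a description and adds no support. In dividing KCs 1055 genes were called with DESeq2 (1656 in the main result), and the calcium genes called went from 1 to 0 with DESeq2 and without TMM scaling and to 2 with the Ly6d-led cluster as resting basal. In T cell-like cells they went from 3 to 1 with DESeq2's size factors, and in terminally differentiated KCs from 6 to 2 without TMM scaling. With cells under 5% mitochondrial UMIs 4 calcium genes passed in differentiated KCs and 3 each in terminally differentiated and hair follicle-like cells. Over all genes 3254 were called in differentiated KCs (6433 in the main result) and 1945 in terminally differentiated KCs (3921). In hair follicle-like cells 3758 were called (5341), in sebaceous-like cells 3662 (6271) and in melanocyte-like cells 4859 (7329). This setting holds fewer cells, and the dividing comparison was not run in it for want of cells.

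With the mouse as a replicate block, 2691 genes were called in dividing KCs, Itpr3 and Atp2a2 gained calls in hair follicle-like and Atp2a2 and Atp2c1 in melanocyte-like cells, and Itpr1 lost its calls in Langerhans-like and T cell-like cells. The block changed no other call of a calcium gene. With the other arithmetic kernel 8 calls of calcium genes were lost and 2 gained, and the calls of Itpr2 and Orai1 in differentiated KCs were among those lost.

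Without TMM scaling, higher genes made up 80% of the calls in terminally differentiated KCs (49.8% with it), 82.3% in dividing KCs (58.6%), 35.9% in differentiated KCs (50.8%), 68.1% in hair follicle-like (50%), 64.3% in melanocyte-like (50.4%), 38.8% in Langerhans-like (49.3%) and 55.7% in T cell-like cells (44.1%; 59.5% with DESeq2 and 54.7% with its size factors). Thinned to 3000 UMIs, the share of IFE cells with a UMI was 0% for Itpr1 (0.461% before), 10% for Itpr2 (28.1%), 7.34% for Itpr3 (24%), 9.57% for Stim1 (32.4%), 7.84% for Stim2 (25%), 10.1% for Orai1 (32%), 16.9% for Atp2a2 (46.6%), 8.22% for Atp2c1 (27.2%) and 1.72% for Plcd1 (6.79%). The scaling without TMM, the other kernel, the Ly6d-led cluster as resting basal and the reduced terminally differentiated stage were chosen after seeing the data. With 1 library per mouse and 2 mice, small differences of the low genes Plcd1, Itpr1 and Casr could not be seen at this depth.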
